A study of Mus musculus with 36 samples.

Results

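Bile acid synthesis and transport in the liver were followed through 10 genes, Cyp7a1, Cyp8b1, Cyp27a1, Cyp7b1, Nr0b2, Nr1h4, Fgfr4, Klb, Slc10a1 and Abcb11. They were picked by symbol as the main enzymes, regulators and transporters of bile acids, and all 10 were found among the 24421 genes counted. The counts came from livers of 36 male C57BL/6J mice, bought at 7 weeks of age and fed for 12 weeks a choline-deficient, amino acid-defined diet rich in fat (CDAHFD), which produces a fatty, fibrotic liver. Under a high-fat diet with choline (HFD), given for 2 weeks, 10 mice were then injected once a week with Fc, a plain antibody Fc fragment, at 4.3 mg/kg and 10 with Fc(mML1)B3 at 5 mg/kg. Under a standard diet, given for 10 days, Fc was injected into 9 mice and Fc(mML1)B3 into 7, at those doses, on days 1, 4 and 7. Fc(mML1)B3 is an Fc carrying a grafted cyclic peptide that activates Met, the receptor of hepatocyte growth factor. All 4 groups therefore shared the CDAHFD period, and no group of untreated or never-CDAHFD mice was analysed here.

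Bile acids are made from cholesterol in hepatocytes. In the classic route Cyp7a1 adds the first hydroxyl group and Cyp8b1 directs the product towards cholic acid, while Cyp27a1 opens the alternative route by oxidising the side chain and Cyp7b1 hydroxylates the oxysterols formed. Bile acids that return to the liver enter through Slc10a1 and leave into bile through Abcb11. They also activate the nuclear receptor encoded by Nr1h4 (FXR), which induces Nr0b2 (SHP) and, in the ileum, the hormone Fgf15. Fgf15 acts on hepatocytes through the receptor Fgfr4 and its co-receptor Klb, and these signals lower Cyp7a1.

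Promoter letters are shown for 3 of the genes, as examples with matches to motifs of the kinds through which this pathway is known to be controlled. A match is one of letters, and binding was not tested. The windows are the 250 bases before the RefSeq start on GRCm38.p6, given in the direction of the gene, and 8 of the 10 genes had an entry. Each window was searched on both strands for 5 motifs. These were the E-box CACGTG of clock factors, the HNF4 element CAAAGTCCA, the nuclear receptor half-site AGGTCA, the core TCAAGG of the site of Nr5a2, and the D-box TTATGTAA of the Dbp family. None of these motifs overlapped another in the printed windows. Capitals mark the matches, which are the HNF4 element in Cyp8b1, the E-box and a pair of TCAAGG cores in Nr0b2, and the half-site read on the opposite strand in Abcb11.
Cyp8b1, chr9:121916306-121916555, minus strand: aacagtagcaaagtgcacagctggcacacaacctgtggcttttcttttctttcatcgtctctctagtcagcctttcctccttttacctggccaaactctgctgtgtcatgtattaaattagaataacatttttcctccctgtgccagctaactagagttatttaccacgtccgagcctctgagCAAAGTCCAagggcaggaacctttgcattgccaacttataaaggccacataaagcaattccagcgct
Nr0b2, chr4:133553126-133553375, plus strand: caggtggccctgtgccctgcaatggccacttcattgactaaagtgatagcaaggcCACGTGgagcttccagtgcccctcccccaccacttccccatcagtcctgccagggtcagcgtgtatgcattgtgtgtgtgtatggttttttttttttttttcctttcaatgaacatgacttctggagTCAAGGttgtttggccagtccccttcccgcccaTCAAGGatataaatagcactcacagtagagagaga
Abcb11, chr2:69342617-69342866, minus strand: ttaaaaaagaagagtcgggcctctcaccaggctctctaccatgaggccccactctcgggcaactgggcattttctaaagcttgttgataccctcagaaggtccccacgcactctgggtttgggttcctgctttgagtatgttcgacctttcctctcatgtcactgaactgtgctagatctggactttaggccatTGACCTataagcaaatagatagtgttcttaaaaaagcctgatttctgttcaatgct
Of 32851 promoter windows of this length, 0.3835% held the HNF4 element, 6.021% the E-box, 12.46% the TCAAGG core, 14.02% the half-site and 0.8188% the D-box. The half-site was also present in the window of Nr1h4 and in 1 of the 2 windows of Slc10a1. A RefSeq start need not be the outer end of the gene as counted. The window of Nr1h4 (chr10:89506659-89506908, minus strand) lies inside the counted gene, whose outer end is at 89533622. No motif was found in the windows of Cyp27a1, Fgfr4 and Klb, which says only that these letters are absent from those bases.

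Libraries held 14949035 to 28466853 reads counted on genes, with a median of 23558194.5. The lowest count of Cyp7a1 in any mouse was 1261, and the lowest of Klb, the weakest gene of the set by counts, was 186. Levels are given as CPM, a gene's share of its library's counts after TMM scaling over all libraries. The hepatocyte markers summed to between 69281 and 144646 CPM per library, and the bile duct markers to between 167 and 848 CPM. Most of the bile duct sum came from the marker Spp1. Its mean was 477 CPM in Fc mice under the HFD, against 26.2 CPM for Sox9, the next highest. In 2 libraries at least 5 of the 10 genes were the lowest of the group. Fc mouse 7 under the HFD was the lowest of its group in 7 of the 10 genes, with 119799 CPM of hepatocyte, 618 of bile duct and 407 of stellate cell markers and the highest macrophage sum of the 36 libraries (446 CPM). Fc(mML1)B3 mouse 5 under the HFD was the lowest in 5, and had the lowest hepatocyte sum (69281 CPM) and the highest bile duct (826 CPM) and stellate cell (517 CPM) sums of its group. Leaving out both left 2 genes called under the HFD, as with them, where 14.8% of all genes were called with them in. Under the HFD, all Fc libraries belong to 1 numbered series and the Fc(mML1)B3 libraries to 2 others, of 4 and 6 libraries, so series and protein cannot be told apart there. The series are read from the numbers in the names of the deposited files, and the labels do not say what these numbers mark. Under the standard diet, 4 of the 9 Fc libraries share the series of all 7 Fc(mML1)B3 libraries. In whole liver, fewer hepatocytes and less RNA per hepatocyte cannot be told apart.

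Per kilobase of exon, the transporter Slc10a1 and the enzyme Cyp27a1 were the most abundant of the 10 in each group and Klb the least. In Fc mice under the HFD, Slc10a1 stood at 247 ± 73.0 and Cyp27a1 at 205 ± 58.5 CPM per kb (SD, n = 10), a difference within the spread. Cyp8b1 followed at 132.4 ± 83.4 CPM per kb, with a wide range among mice. Nr1h4, Abcb11 and Cyp7a1, at 66.2 ± 14.6, 54.9 ± 11.6 and 46.5 ± 21.7 CPM per kb, did not differ beyond their spread, and neither did Nr0b2 (24.6 ± 7.12) and Cyp7b1 (22.2 ± 8.17). Fgfr4 (10.4 ± 0.78) and Klb (4.97 ± 0.65), which act as a pair, were the lowest, and they did not overlap in level. Spread between mice was unequal over the genes and groups. The coefficient of variation of Cyp8b1 was 63.0% in Fc mice under the HFD, whereas that of Nr1h4 was 6.33% and that of Cyp27a1 8.32% in Fc mice under the standard diet.

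**Figure D1:**
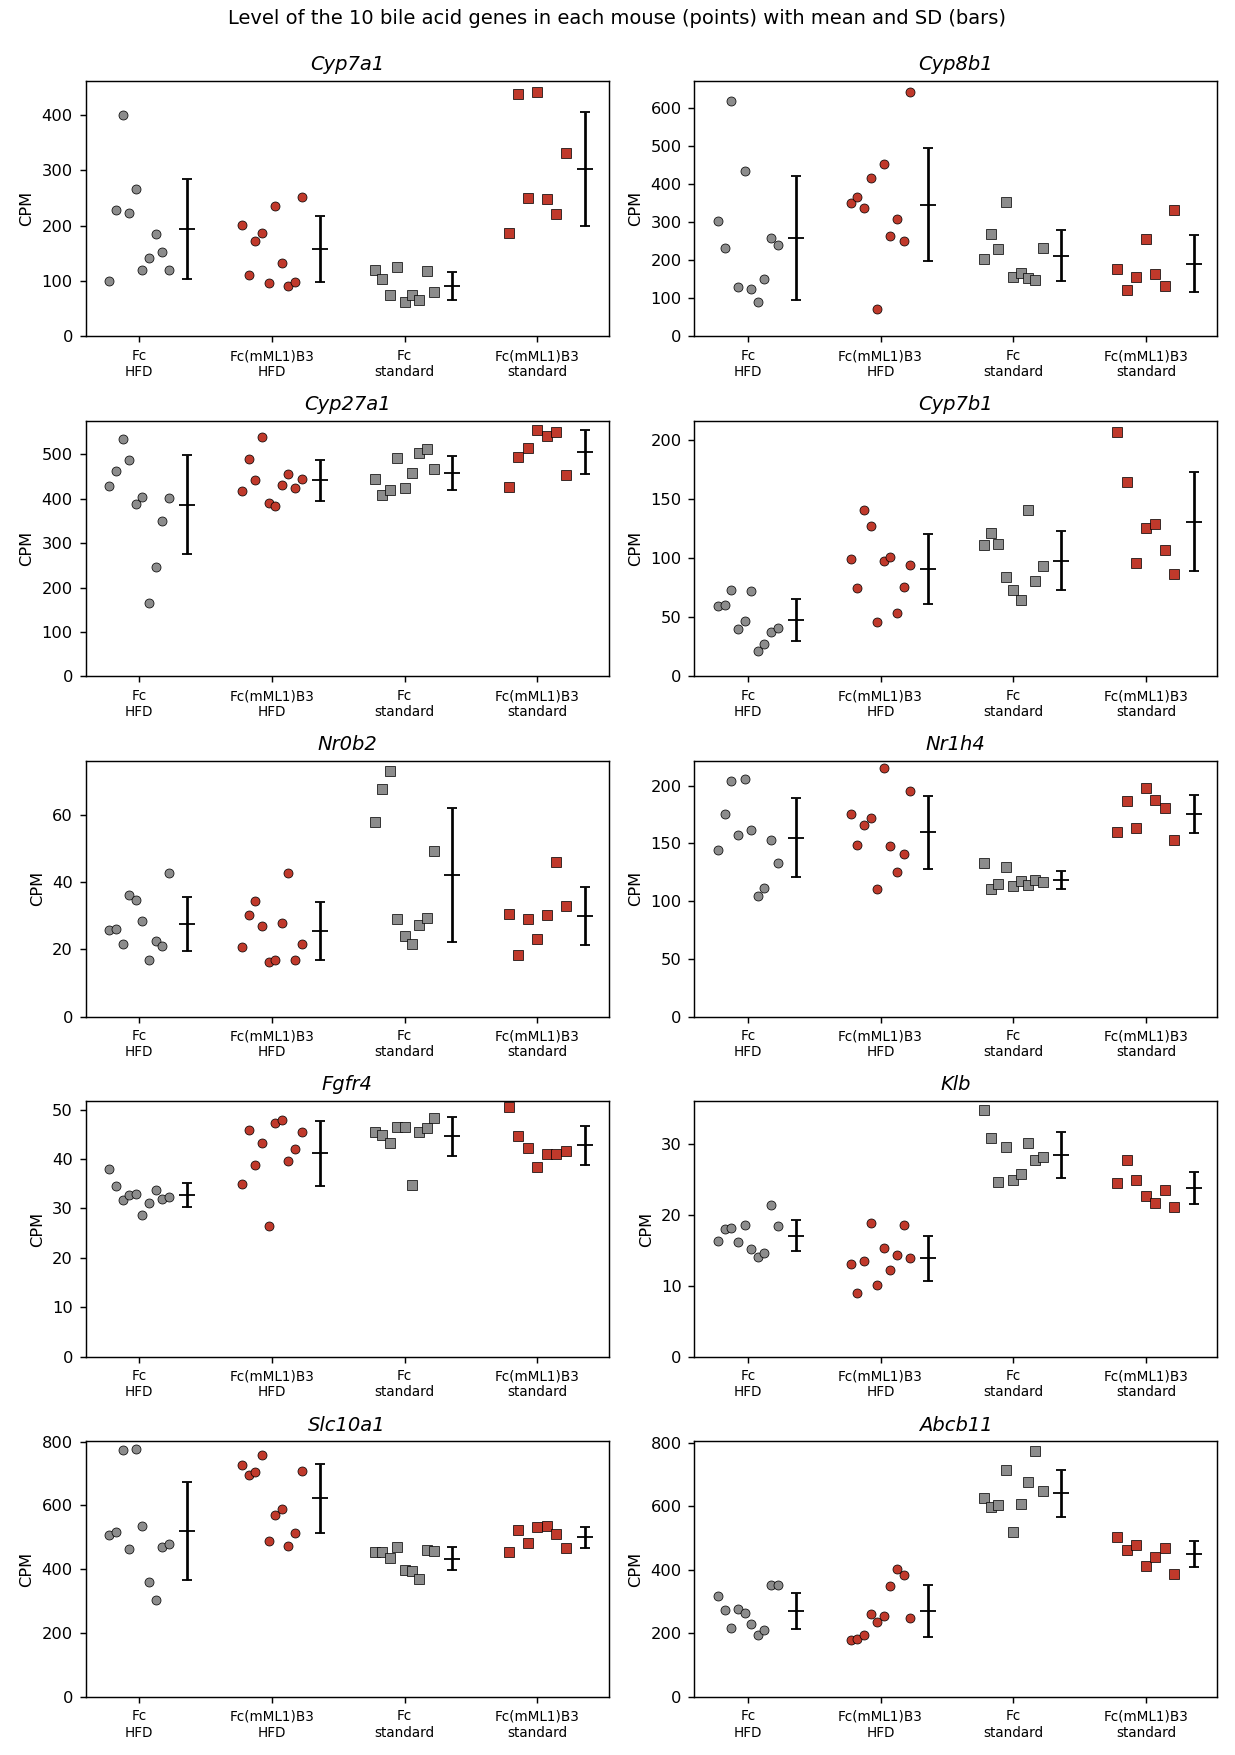
Levels of the 10 genes in CPM (vertical axis, from 0) in every mouse, by protein and diet (horizontal axis); grey points are Fc, red points Fc(mML1)B3, circles HFD, squares standard diet, and bars show the mean and SD. Under the standard diet all 7 Fc(mML1)B3 mice lie above the 9 Fc mice for Cyp7a1 (from 187 against at most 125 CPM) and Nr1h4, and below them for Abcb11. The share of all genes that separate in this way was not counted.

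The first comparison asked what Fc(mML1)B3 did to these genes once the mice ate a standard diet. Cyp7a1, Nr1h4 and Slc10a1 rose and Abcb11 and Klb fell, so 3 genes were called higher and 2 lower, where a call is an adjusted p below 0.05 in the quasi-likelihood test of edgeR. Among all 13570 genes tested 16.1% were called, 8.56% higher and 7.55% lower. The median log2 fold change of the 10 genes was 0.04, against -0.01 over all genes. The study states its limits for this diet in 2 ways. With one of them, a 1.5-fold change at the same adjusted p, Cyp7a1 was the gene of the 10 that remained, and 2.36% of all genes passed.

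Cyp7a1, the rate-limiting enzyme of the classic route, ranged from 61.8 to 125 CPM with a median of 80.8 in Fc mice, and from 187 to 442 CPM with a median of 250.4 in Fc(mML1)B3 mice. The groups did not overlap, and the share of all genes without overlap was not counted, here or for the genes below. The log2 fold change of Cyp7a1 was 1.72 (SE 0.19), or 3.30-fold, with an adjusted p of 3.85e-06 in edgeR. Within the series that holds both proteins it was 1.83 (edgeR adjusted p = 5.79e-04).

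The other enzymes did not pass the test. Cyp8b1, the 12-alpha-hydroxylase, ranged from 148 to 352 CPM (median 204) in Fc and from 123 to 331 CPM (median 164) in Fc(mML1)B3 mice, with a log2 fold change of -0.15 (95% interval -0.56 to 0.25). The groups covered nearly the same range, and within the shared series the value was 0.12. Cyp27a1, the mitochondrial sterol 27-hydroxylase, had medians of 457 and 514 CPM and a log2 fold change of 0.14 (edgeR adjusted p = 0.148). Cyp7b1, the 7-alpha-hydroxylase of the alternative route, had medians of 93.4 and 126 CPM and a log2 fold change of 0.42 (SE 0.17, edgeR adjusted p = 0.109). In 6 of 7 Fc(mML1)B3 mice Cyp7b1 was above the Fc median, and leaving out single libraries moved its log2 fold change between 0.27 (edgeR adjusted p = 0.269), without Fc(mML1)B3 mouse 1, and 0.50. It was called in 1 of these 16 fits, that without Fc mouse 7 (edgeR adjusted p = 0.0488).

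Of the receptors and their partners, Nr1h4 ranged from 111 to 132.5 CPM (median 116) in Fc and from 153 to 198 CPM (median 180.3) in Fc(mML1)B3 mice. The groups did not overlap, and the 9 Fc mice lay close together. The log2 fold change was 0.57 (SE 0.06, edgeR adjusted p = 1.21e-06), and it was 0.59 within the shared series. Nr0b2, the small partner receptor that represses Cyp7a1 and a target of Nr1h4, ranged from 21.7 to 73.1 CPM (median 29.3) in Fc and from 18.4 to 46.0 CPM (median 30.3) in Fc(mML1)B3 mice. Its log2 fold change was -0.49 (SE 0.25, edgeR adjusted p = 0.202), while 4 of 7 Fc(mML1)B3 mice were above the Fc median, so mean and median differed in direction. The Fc mice of the series without Fc(mML1)B3 libraries held the highest values, with a median of 57.7 CPM against 28.3 CPM in the other 4 Fc mice, and within the shared series the log2 fold change of Nr0b2 was -0.09.

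Klb ranged from 24.7 to 34.8 CPM (median 28.2) in Fc and from 21.2 to 27.8 CPM (median 23.5) in Fc(mML1)B3 mice. It fell by 0.26 on the log2 scale (SE 0.07, edgeR adjusted p = 0.0167), and all 7 Fc(mML1)B3 mice were below the Fc median, though the groups overlapped. Within the shared series the value was -0.24 (edgeR adjusted p = 0.0707) and Klb was not called. Its partner Fgfr4, the receptor kinase, had medians of 45.4 and 41.6 CPM and a log2 fold change of -0.06 (95% interval -0.18 to 0.06). The ligand Fgf15 had a median of 0 CPM in all 4 groups and at most 0.12 CPM in any liver library.

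The transporters moved in opposite directions. Slc10a1, which takes up bile acids from blood, ranged from 368 to 471 CPM (median 454) in Fc and from 453 to 536 CPM (median 509) in Fc(mML1)B3 mice. It rose by 0.21 on the log2 scale (SE 0.06, edgeR adjusted p = 0.0153), with 5 of 7 Fc(mML1)B3 mice above all Fc mice. Within the shared series the value was 0.25 (edgeR adjusted p = 0.0526), and Slc10a1 was not called. Abcb11, the bile salt export pump, ranged from 521 to 775 CPM (median 628) in Fc and from 386 to 504 CPM (median 464) in Fc(mML1)B3 mice, with no overlap. It fell by 0.51 on the log2 scale (SE 0.07, edgeR adjusted p = 6.50e-05), and the value was -0.59 within the shared series. Abcb11 is known as a target of FXR, and its level and that of the FXR gene Nr1h4 thus moved in opposite directions.

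**Figure D2:**
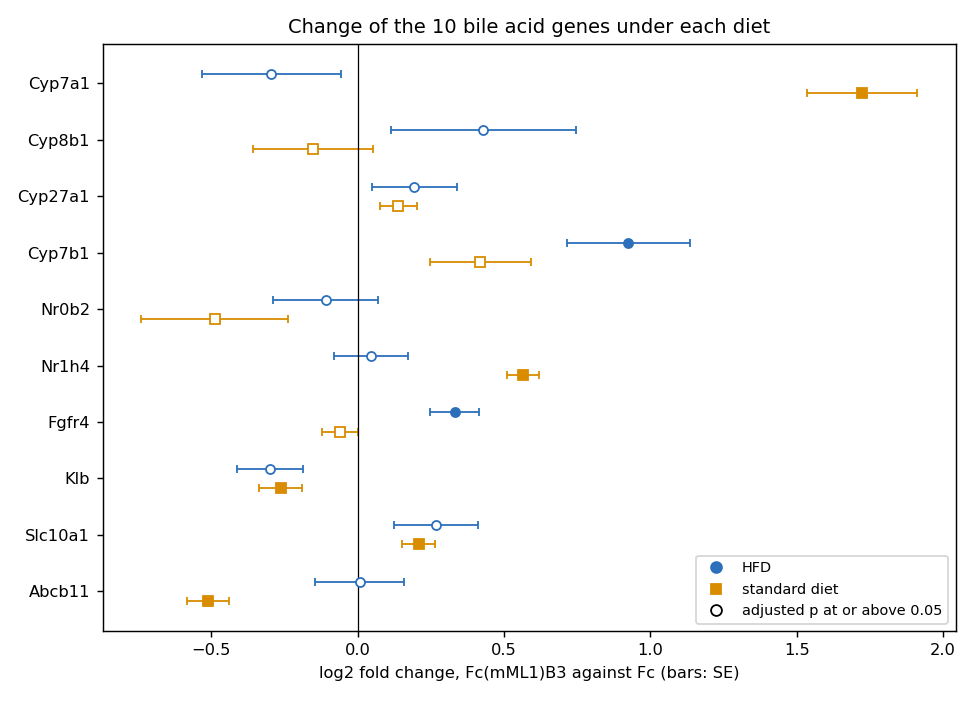
Log2 fold change of Fc(mML1)B3 against Fc (horizontal axis) for each gene (vertical axis), under the HFD (blue circles) and the standard diet (orange squares), with SE; open symbols have an adjusted p of 0.05 or more. Cyp7a1 stands at 1.72 under the standard diet but at -0.30 under the HFD, and the remaining values lie between -0.51 and 0.92.

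The proteins were next compared under the HFD. Cyp7b1 and Fgfr4 rose in Fc(mML1)B3 mice and none of the 10 fell, while 14.8% of the 13299 genes tested were called, 8.14% higher and 6.68% lower. The median log2 fold change of the 10 genes was 0.12, against -0.01 over all genes. With the limits of the study under the HFD, a 2-fold change at an adjusted p below 0.1, 0 of the 10 remained and 1.34% of all genes passed. At an unadjusted p below 0.05, Klb joined the called genes, and the share of all genes that pass this looser limit was not counted.

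Cyp7b1 ranged from 21.5 to 73.1 CPM (median 43.9) in Fc and from 46.4 to 140.7 CPM (median 96.3) in Fc(mML1)B3 mice. All 10 Fc(mML1)B3 mice were above the Fc median and 8 were above every Fc mouse. The log2 fold change was 0.92 (SE 0.21, edgeR adjusted p = 0.00426), or 1.90-fold. Limited to the series of 4 it was 1.21 (edgeR adjusted p = 0.00992), and limited to the series of 6 it was 0.71 (edgeR adjusted p = 0.0549) and was not called.

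Cyp7a1, by contrast, ranged from 100.4 to 399 CPM (median 169) in Fc and from 91.6 to 252 CPM (median 153) in Fc(mML1)B3 mice. The ranges overlapped, with 5 of 10 Fc(mML1)B3 mice above the Fc median and 3 below every Fc mouse, and the log2 fold change was -0.30 (95% interval -0.76 to 0.17). It was -0.11 without Fc mouse 3, which had the highest level, and -0.10 in limma-voom. Cyp8b1 ranged from 89.5 to 619 CPM (median 236) in Fc and from 72.3 to 642 CPM (median 344) in Fc(mML1)B3 mice. Although 9 of 10 Fc(mML1)B3 mice exceeded the Fc median, the spread was wide and the log2 fold change was 0.43 (95% interval -0.19 to 1.05), or 0.29 to 0.68 with single libraries left out. Cyp27a1, at medians of 403 and 437 CPM, had a log2 fold change of 0.19 (95% interval -0.09 to 0.48).

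Fgfr4 ranged from 28.6 to 38.1 CPM (median 32.6) in Fc and from 26.5 to 48.0 CPM (median 42.6) in Fc(mML1)B3 mice, of which 8 exceeded every Fc mouse. Fc(mML1)B3 mouse 5 lay below them all. The log2 fold change of Fgfr4 was 0.33 (SE 0.08, edgeR adjusted p = 0.00965), with 0.32 and 0.35 in the series of 4 and 6. Scaled by library totals without TMM it was 0.22 (edgeR adjusted p = 0.0658) and was not called. Klb, at medians of 17.2 and 13.7 CPM, had a log2 fold change of -0.30 (SE 0.11, edgeR adjusted p = 0.0764), and 6 of 10 Fc(mML1)B3 mice were below every Fc mouse. Without Fc(mML1)B3 mouse 4 or 9 its adjusted p in edgeR was 0.0402 or 0.0391. Klb was also called with upper-quartile scaling, at -0.34 (edgeR adjusted p = 0.0388), and with library totals, at -0.40 (edgeR adjusted p = 0.0303). Fgfr4 and its co-receptor thus had values of opposite sign under the HFD.

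Nr1h4, at medians of 155 and 157 CPM, and Nr0b2, at 25.97 and 24.3 CPM, had log2 fold changes of 0.04 (95% interval -0.20 to 0.29) and -0.11 (95% interval -0.46 to 0.24). Slc10a1, at medians of 492 and 641 CPM, had a log2 fold change of 0.27 (SE 0.14, edgeR adjusted p = 0.216). Its 4 Fc(mML1)B3 libraries of 1 series ranged from 695 to 758 CPM and the 6 of the other from 472 to 707 CPM.

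Abcb11 had nearly equal means, 269 ± 56.7 CPM in Fc and 269 ± 82.3 CPM in Fc(mML1)B3 mice (SD, n = 10 each), and a log2 fold change of 0.01 (95% interval -0.29 to 0.31). The Fc(mML1)B3 libraries ranged from 178 to 260 CPM (median 189) in the series of 4 and from 236 to 403 CPM (median 303) in the series of 6, and these ranges overlapped. Against all Fc mice the log2 fold change of Abcb11 was -0.39 (edgeR adjusted p = 0.132) with the former and 0.23 (edgeR adjusted p = 0.354) with the latter. Neither was called, and the 2 series were not tested against each other.

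Of the markers of other cell types under the HFD, none of 5 hepatocyte, 6 bile duct, 6 macrophage, 6 stellate cell or 5 endothelial markers was called between the proteins. Their summed levels were spread widely among mice. Summed bile duct markers ranged from 169 to 848 CPM (median 568.3) in Fc and from 167 to 826 CPM (median 312) in Fc(mML1)B3 mice. Spp1 made up most of these sums, at means of 477 CPM in Fc and 308 CPM in Fc(mML1)B3 mice. Summed stellate cell markers ranged from 201 to 448 CPM (median 341) and from 168 to 517 CPM (median 236), and summed hepatocyte markers from 76323 to 136907 CPM (median 102049) and from 69281 to 144646 CPM (median 117373). Their part in the values of the bile acid genes under the HFD was not tested.

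An interaction term in the model of all 36 libraries compared the response to Fc(mML1)B3 under one diet with that under the other. Of the 10 genes, 3 passed, Cyp7a1 and Nr1h4 higher and Fgfr4 lower under the standard diet, where 9.06% of 14105 genes passed, 4.66% higher and 4.4% lower. The effect on Cyp7a1 was higher under the standard diet by 2.03 on the log2 scale (SE 0.33, edgeR adjusted p = 4.27e-05) and that on Nr1h4 by 0.54 (SE 0.15, edgeR adjusted p = 0.0181), while that on Fgfr4 was lower, at -0.37 (SE 0.11, edgeR adjusted p = 0.0241). Without Fc(mML1)B3 mouse 4 of the standard diet, which had the highest Cyp7a1 and Nr1h4 of its group, the value of Nr1h4 was 0.49 (edgeR adjusted p = 0.053).

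Abcb11, called under the standard diet and not under the HFD, had an interaction of -0.50 (SE 0.19, edgeR adjusted p = 0.104), so a difference between the diets was not shown. Without Fc(mML1)B3 mouse 2 of the HFD it was -0.57 (edgeR adjusted p = 0.0407), and in limma-voom it was -0.48 (adjusted p = 0.0471). The same held for Cyp7b1, called under the HFD alone, at -0.49 (SE 0.29, edgeR adjusted p = 0.362). For Klb and Slc10a1 the interaction was near 0, at 0.06 (95% interval -0.23 to 0.34) and -0.04 (95% interval -0.38 to 0.29). Diet goes together with the experiment, the number of injections and the library series, and these cannot be told apart.

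The 2 diets were also compared within each protein. In Fc mice the standard diet went with lower Cyp7a1 and Nr1h4 and higher Cyp7b1, Nr0b2, Fgfr4, Klb and Abcb11, 7 of the 10 genes, while 47.9% of the 14105 genes were called, 23.3% higher and 24.6% lower. In Fc(mML1)B3 mice 6 of the 10 were called, Cyp7a1, Cyp7b1, Klb and Abcb11 higher and Cyp8b1 and Slc10a1 lower, against 38.5% of all genes, 20.7% higher and 17.9% lower. Both comparisons are between separate experiments.

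Cyp7a1 was the gene of the 10 called in opposite directions, at -1.09 (SE 0.23, edgeR adjusted p = 1.81e-04) in Fc mice and 0.94 (SE 0.24, edgeR adjusted p = 0.00178) in Fc(mML1)B3 mice. In the latter all 7 standard diet mice exceeded the HFD median. Nr1h4 fell by 0.40 (SE 0.10, edgeR adjusted p = 0.0019) on the log2 scale in Fc mice and stood at 0.14 (edgeR adjusted p = 0.326) in Fc(mML1)B3 mice. Abcb11 was 1.24 higher (SE 0.13, edgeR adjusted p = 1.45e-09) in Fc and 0.74 higher (SE 0.14, edgeR adjusted p = 6.01e-05) in Fc(mML1)B3 mice, and in Fc mice the diets did not overlap. Klb was 0.72 higher (SE 0.10) in Fc and 0.78 higher (SE 0.11) in Fc(mML1)B3 mice, with no overlap between the diets under either protein. The share of all genes without overlap between the diets was not counted.

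Fgfr4 was 0.43 higher (SE 0.07, edgeR adjusted p = 1.16e-05) under the standard diet in Fc mice and stood at 0.06 (95% interval -0.10 to 0.22) in Fc(mML1)B3 mice. Cyp7b1 was 1.02 higher (SE 0.20, edgeR adjusted p = 8.47e-05) in Fc mice. Nr0b2 was 0.60 higher (SE 0.22, edgeR adjusted p = 0.0214) in Fc mice, and its adjusted p in edgeR was 0.0627 and 0.0746 without Fc mouse 2 and Fc mouse 3 of the standard diet (limma-voom gave 0.0618). In Fc(mML1)B3 mice the calls of Cyp7b1 (0.53), Slc10a1 (-0.31) and Cyp8b1 (-0.85) were close to the threshold, with edgeR adjusted p of 0.046, 0.0467 and 0.0301. Each was lost when single libraries were left out, in 17, 20 and 6 of 36 fits, with adjusted p in edgeR of up to 0.182 for Cyp7b1 and 0.0958 for Slc10a1 without Fc(mML1)B3 mouse 1 of the standard diet, and of 0.0686 for Cyp8b1 without Fc(mML1)B3 mouse 10 of the HFD. The other fits that lost Cyp8b1 were those without Fc(mML1)B3 mouse 1, 2, 3, 5 or 6 of the standard diet. Of 7 other settings (tools, scalings, filters and the 2 HFD libraries left out), the call of Cyp7b1 was lost in 6, all but library totals, and that of Slc10a1 in 2, both of them filters on low counts, while Cyp8b1 was called in all 7. In Fc mice Slc10a1 stood at -0.27 (edgeR adjusted p = 0.0539) and passed without Fc mouse 7 or 8 or Fc(mML1)B3 mouse 5 of the HFD (edgeR adjusted p = 0.0217, 0.0107 and 0.0444). It also passed in 4 of the 7 other settings, with DESeq2, upper-quartile scaling, library totals and without the 2 HFD libraries. In the same mice Cyp27a1 stood at 0.24 (edgeR adjusted p = 0.0997) and passed without Fc mouse 3 or 4 of the HFD (edgeR adjusted p = 0.0343 and 0.0494).

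Markers of other cell types moved with diet as well. In Fc mice 5 of 6 stellate cell, 2 of 6 bile duct and 2 of 6 macrophage markers were lower under the standard diet, where 24.6% of all genes were lower. In Fc(mML1)B3 mice 4 of 6 stellate cell, 2 of 6 bile duct and 2 of 6 macrophage markers were lower, where 17.9% of all genes were. Of 5 endothelial markers 1 (Kdr) was higher under both proteins. Of 5 hepatocyte markers 1 (Apoc3) was lower under both and 1 (Fgb) higher in Fc mice. Among all genes 23.3% were higher in Fc and 20.7% in Fc(mML1)B3 mice, so these counts are near the shares over all genes. In Fc mice summed stellate cell markers had a median of 174 CPM (145 to 259) against 341 CPM (201 to 448) under the HFD, and in Fc(mML1)B3 mice 142.5 CPM (131.4 to 170.7) against 236 CPM (168 to 517). Their part in the values above was not tested.

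The balance of the enzymes was examined as the log2 ratio of counts within a mouse, which does not depend on library size or scaling. Counts were not divided by gene length here, so a change in the ratio is of interest and its level is not. The ratio of Cyp8b1 to Cyp7a1 was 1.20 ± 0.42 (SD, n = 9) in Fc mice under the standard diet and -0.67 ± 0.60 (SD, n = 7) in Fc(mML1)B3 mice, and the highest Fc(mML1)B3 mouse, at -0.000703, was below the lowest Fc mouse, at 0.31. The difference was -1.88 (SE 0.27, exact permutation test, 2-sided, p = 1.75e-04, adjusted over 4 tests 6.99e-04). Under the HFD the ratio was 0.30 ± 0.76 (SD, n = 10) and 1.06 ± 0.61 (SD, n = 10), a difference of 0.76 (SE 0.31, permutation test, p = 0.0256, adjusted p = 0.0256). The groups overlapped, and without Fc mouse 4 or 7 the permutation p was 0.0513 or 0.0506. The call was also lost with the replicate number as a block (permutation p = 0.0605) and with the Fc(mML1)B3 series of 6 (0.69, exact permutation p = 0.0989).

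The ratio of Cyp7b1 to Cyp7a1, which sets the alternative against the classic route at the level of RNA, also moved in opposite directions. It was 0.11 ± 0.54 (SD, n = 9) and -1.19 ± 0.69 (SD, n = 7) under the standard diet, a difference of -1.30 (SE 0.32, exact permutation test, p = 0.00122, adjusted p = 0.00163). Under the HFD it was -1.98 ± 0.75 and -0.77 ± 0.40 (SD, n = 10 each), a difference of 1.21 (SE 0.27, permutation test, p = 7.4e-04, adjusted p = 0.00148). Under the standard diet neither Cyp8b1 (-0.15) nor Cyp7b1 (0.42) was called on its own, so both differences there restate the rise of Cyp7a1 and are no separate result. Under the HFD Cyp7b1 was called on its own (0.92) and Cyp7a1 was not (-0.30), so the difference of 1.21 largely restates the rise of Cyp7b1. There Cyp7b1 was higher relative to Cyp7a1 in every setting tried, and the call for the ratio of Cyp8b1 depended on the setting. Both ratios have Cyp7a1 in common.

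**Figure D3:**
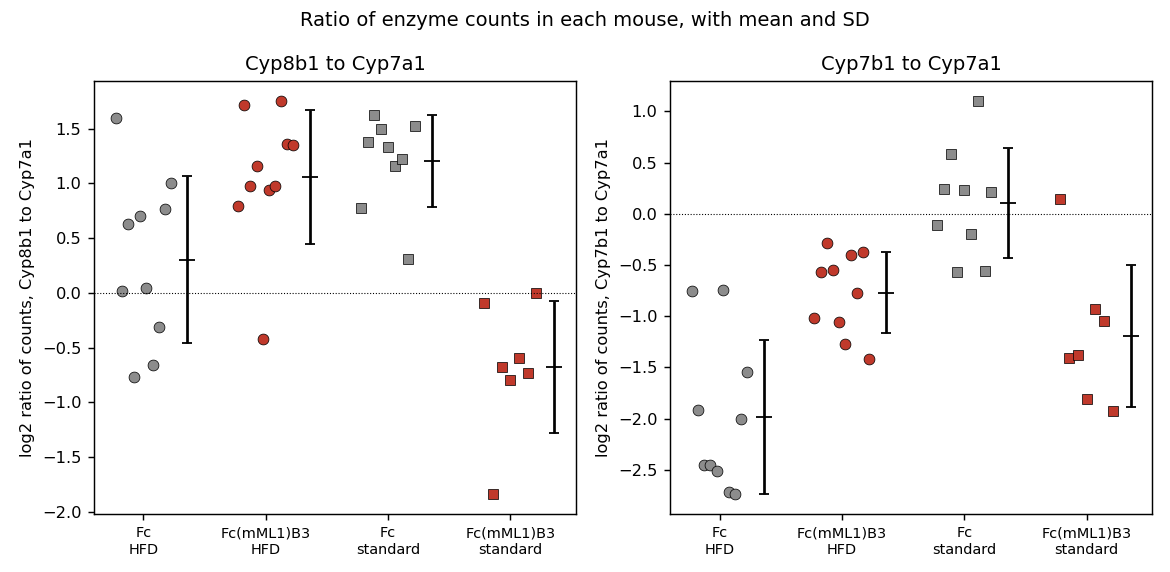
Log2 ratio of the counts of Cyp8b1 (left) and Cyp7b1 (right) to those of Cyp7a1 in every mouse (vertical axes), by protein and diet (horizontal axes), with mean and SD. For Cyp8b1 the 7 Fc(mML1)B3 mice of the standard diet lie at or below -0.000703 and the 9 Fc mice at or above 0.31.

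Within groups, mice with more Cyp7a1 also tended to have more Nr1h4. With the mean of each group subtracted from log2(CPM + 1), Pearson's r over the 36 mice was 0.69 (permutation within groups, p = 3.00e-05, adjusted over 12 relations 3.60e-04) and Spearman's rho 0.74 (permutation p = 2.00e-05, adjusted p = 2.40e-04). Without the 2 mice farthest from the median of Cyp7a1, r was 0.63. It was 0.62 and 0.93 in Fc and Fc(mML1)B3 mice under the HFD (n = 10 each), and 0.68 and 0.47 under the standard diet (n = 9 and n = 7). Slc10a1 (r = 0.56, rho = 0.59, permutation p = 0.00219 and 6.50e-04, adjusted p = 0.00876 and 0.0039) and Cyp8b1 (r = 0.53, rho = 0.46, permutation p = 0.00189 and 0.00767, adjusted p = 0.00876 and 0.0307) also passed. Without the 2 farthest mice these were 0.44 and 0.40. Of the 12 relations 3 passed, and that between Cyp7a1 and Nr0b2 (r = -0.11, rho = -0.08, permutation p = 0.518 and 0.635) did not. The share of all genes that correlate as strongly with Cyp7a1 was not counted, so these relations are not shown to be particular to the pathway.

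Over the 9888 genes with a mean of at least 5 CPM, Nr1h4 was the gene with the third highest r with Cyp7a1, after Fbxo33 (0.71) and Brd3 (0.70) and before Ndufv2 (0.68) and Apool (0.67). The lowest were Agrn (-0.68), Zfp36l2 (-0.67) and Spred2 (-0.63). The groups were not alike in these values, since in Fc mice under the standard diet (n = 9) Agrn stood at 0.45, Ndufv2 at 0.078 and Apool at -0.0068. For Cyp8b1 the highest were Slc47a1 (0.86), Ces1e (0.83), Cat (0.83), Pctp (0.82) and Hgfac (0.82), and the lowest Anxa4 (-0.84), Ifngr1 (-0.84) and Cd9 (-0.80). Within groups r ranged from 0.18 (Cat) to 0.96 (Ces1e) over the former 5 genes and from -0.95 to -0.52 over the latter 3. These values describe the 36 libraries, and the libraries of a group share a treatment and come from 1 or 2 numbered series.

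**Figure D4:**
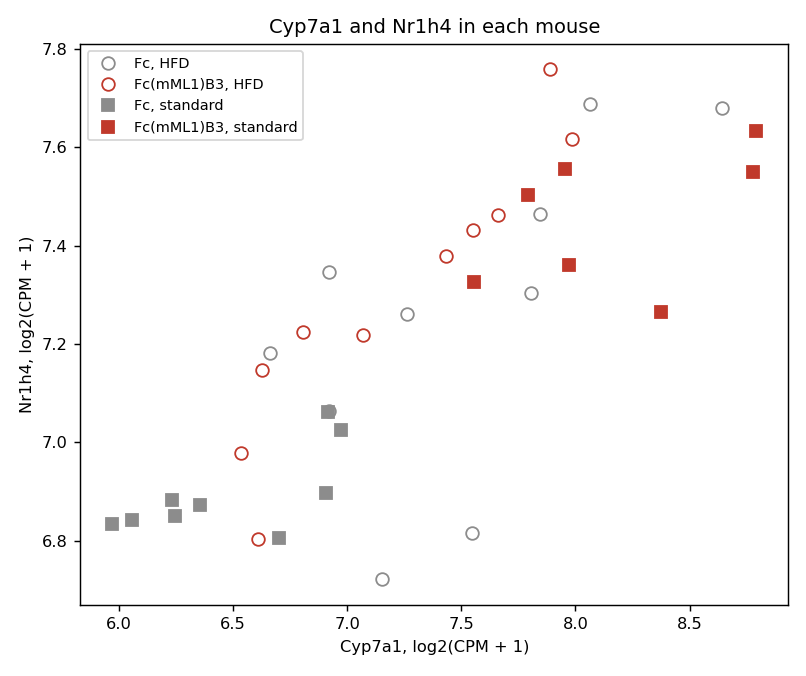
Log2(CPM + 1) of Nr1h4 (vertical axis) against that of Cyp7a1 (horizontal axis) in each of the 36 mice; grey is Fc, red Fc(mML1)B3, open circles HFD and filled squares standard diet. Within groups r was 0.47 to 0.93, and the 7 Fc(mML1)B3 mice of the standard diet lie above and to the right of the 9 Fc mice of that diet.

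Other genes of the pathway were taken from lists of 41 further enzymes, transporters and regulators. Under the HFD 9 of the 36 tested rose and 1 fell, with a median log2 fold change of 0.16, where 8.14% of all genes were called higher and 6.68% lower. Among the ring and side-chain enzymes 5 of 10 rose. Cyp2c70, which makes the muricholic acids of mice, rose by 0.91 (SE 0.13, edgeR adjusted p = 3.54e-05) on the log2 scale, Acox2, a peroxisomal oxidase of the side chain, by 0.63 (SE 0.09, edgeR adjusted p = 4.21e-05) and Hsd17b4, which acts after it, by 0.33 (SE 0.09, edgeR adjusted p = 0.0163). Akr1d1 (0.46) and Cyp39a1 (0.38) were the others called. Reads that aligned to several places were left out of the counts, which can lower genes of families such as Cyp2c.

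Of the 4 conjugation enzymes 1 rose, Baat, which joins bile acids to taurine, at 0.36 (SE 0.10, edgeR adjusted p = 0.0177). Of the 4 canalicular transporters 1 rose, Abcg2, at 0.56 (SE 0.11, edgeR adjusted p = 0.00131), and none of the 3 sinusoidal or 3 basolateral transporters tested was called. Of 12 receptors and regulators 2 rose. These were the hepatocyte factors Hnf4a (0.37, SE 0.11, edgeR adjusted p = 0.0208) and Foxa2 (0.42, SE 0.14, edgeR adjusted p = 0.038), while the oxysterol receptor Nr1h2 fell by 0.29 (SE 0.07, edgeR adjusted p = 0.00349).

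Under the standard diet 4 of the 35 tested rose and 4 fell, with a median of 0.05, where 8.56% of all genes were called higher and 7.55% lower. Hsd3b7, the enzyme that follows Cyp7a1, fell by 0.64 (SE 0.07, edgeR adjusted p = 3.85e-06) and Acox2 by 0.46 (SE 0.08, edgeR adjusted p = 2.87e-04), whereas Akr1d1, the reductase that acts on the ring after Hsd3b7, rose by 0.52 (SE 0.10, edgeR adjusted p = 0.00201). Consecutive enzymes of the classic route thus moved in different directions. Slc27a5, the bile acid CoA ligase, rose by 0.16 (edgeR adjusted p = 0.0408), and the uptake transporter Slco1a4 by 0.42 (edgeR adjusted p = 0.016).

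The flippase Atp8b1 of the canalicular membrane fell by 0.31 (edgeR adjusted p = 0.00624), and none of the basolateral transporters was called. Nr5a2 (LRH-1), which activates Cyp7a1 and Cyp8b1, fell by 0.30 (SE 0.06, edgeR adjusted p = 0.00211). Nr1i3, the xenobiotic receptor CAR, rose by 0.62 (SE 0.09, edgeR adjusted p = 5.22e-05), although 257 of its exonic bases are shared with Tomm40l. None of the 10 genes at the centre of this account shared exonic bases with another gene.

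The interaction passed for 7 of the 37 pathway genes tested, 1 higher and 6 lower, where 4.66% of all genes passed higher and 4.4% lower. Acox2 had opposite called changes under the diets and an interaction of -1.07 (SE 0.12, edgeR adjusted p = 5.42e-08), and Cyp2c70 one of -0.94 (SE 0.18, edgeR adjusted p = 3.19e-04). Hsd3b7 (-0.58), Atp8b1 (-0.50), Hnf4a (-0.44) and Abcg2 (-0.43) were the others lower and Slco1a4 (0.64) the one higher.

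**Figure D5:**
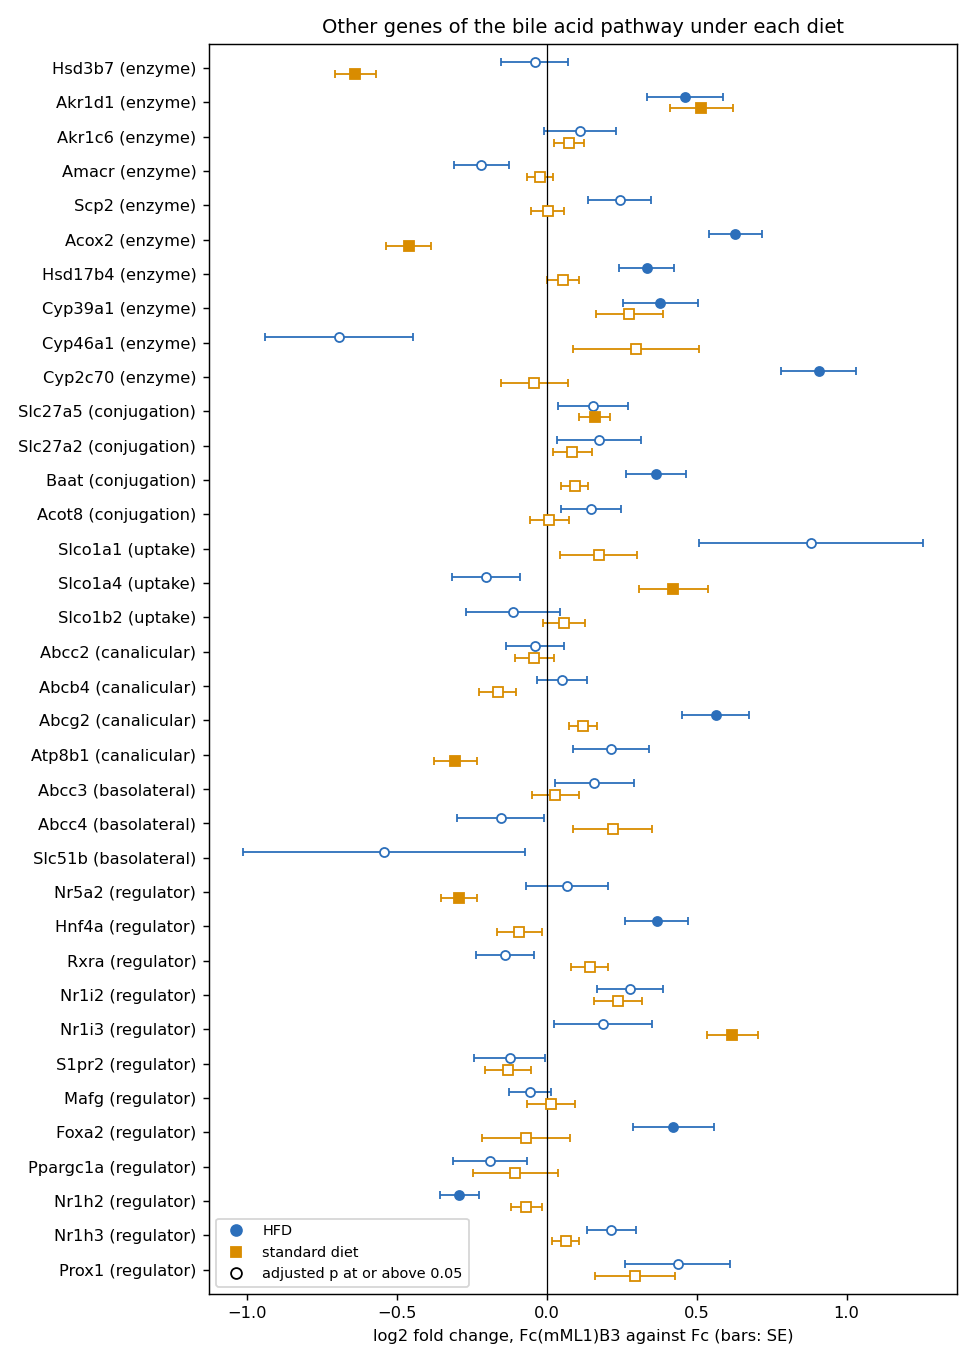
Log2 fold change of Fc(mML1)B3 against Fc (horizontal axis, SE as bars) for the other pathway genes tested (vertical axis, with their class), under the HFD (blue circles) and the standard diet (orange squares); open symbols have an adjusted p of 0.05 or more. Acox2 lies at 0.63 under the HFD but at -0.46 under the standard diet, and Akr1d1 is positive and called under both.

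Clock genes moved strongly in the same libraries, and Cyp7a1, Nr0b2 and other bile acid genes are known to cycle over the day. Of 12 clock genes tested under the HFD 5 rose and 6 fell, and of 13 under the standard diet 6 rose and 4 fell, against 14.8% and 16.1% of all genes called in either direction. The activator Arntl was at 3.98 (SE 0.29) under the HFD but at -1.05 (SE 0.27) under the standard diet, and the output gene Dbp, which shares 539 exonic bases with Sphk2, at -3.31 (SE 0.33) and 0.14 (edgeR adjusted p = 0.625). Nfil3, the repressor that opposes Dbp at the D-box, was at 1.87 (SE 0.15) and -0.29 (edgeR adjusted p = 0.182), Cry1 at 2.22 (SE 0.20) and 1.16 (SE 0.15), and Nr1d1, which represses Arntl, at -2.97 (SE 0.31) and -1.68 (SE 0.15). All 13 had a called interaction, against 9.06% of all genes. The hour at which each liver was taken was not used here, and the part of the daily cycle in the values of the bile acid genes was not tested.

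Markers of other cell types were looked at beside the standard diet result. Under that diet 2 of 6 stellate cell markers (Pdgfrb, and Des, which shares 222 exonic bases with Gm15179), 1 of 6 bile duct markers (Sox9), 1 of 5 hepatocyte markers (Fgb) and none of 6 macrophage or 5 endothelial markers differed between the proteins, all 4 being lower with Fc(mML1)B3, where 7.55% of all genes were called lower. Summed hepatocyte markers ranged from 103218 to 132969 CPM (median 119826) in Fc and from 109282 to 123475 CPM (median 117629) in Fc(mML1)B3 mice. Summed stellate cell markers ranged from 145 to 259 CPM (median 174) and from 131.4 to 170.7 CPM (median 142.5). Summed bile duct markers, cells that also carry bile acid transporters, ranged from 228 to 498 CPM (median 322) in Fc and from 179 to 409 CPM (median 348) in Fc(mML1)B3 mice. Gene by gene, all 6 bile duct markers had log2 fold changes below 0, with a median of -0.37, so the medians of the sum and of the single genes differed in direction. The sum mostly follows Spp1, which had medians of 281 CPM in Fc and 303 CPM in Fc(mML1)B3 mice. Their part in the changes of the bile acid genes was not tested.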

How the data were processed

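Whole-liver RNA of 36 mice, 1 library each, was grouped by the sample labels. The deposited values are counts of reads per gene, which the authors made with fastp, Bowtie2 2.4.5, STAR 2.7.10a on mm10 and featureCounts of Subread 2.0.3. Both ends of a pair had to align, each end counted as a read, reads with several alignments were left out, and strand was ignored although the kit marks it, so antisense reads are counted with a gene.

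The 2 diets were fitted apart in edgeR 4.0.16 (R 4.3.3) by its quasi-likelihood F-test, after TMM scaling and filterByExpr, and p-values were adjusted over all genes tested by the Benjamini-Hochberg method. The diet comparisons and the interaction used 1 model of 4 group means. SE was taken from F (absolute log2 fold change over its square root), and intervals are 95% normal intervals. CPM were scaled by TMM over all 36 libraries. Ratios used counts with 0.5 added and permutation tests (100000 resamples for the HFD, exact otherwise). No pair of libraries in a group was a duplicate (lowest chi-square per degree of freedom 6.305 over 147 pairs). The fits were tested on simulated data.

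The genes and lists were chosen with earlier results of these data known. Named are the 10 genes in every comparison, up to 3 called genes a direction with the smallest p from each pathway list, 5 clock genes, and for Cyp7a1 and Cyp8b1 the 5 highest and 3 lowest correlated genes; Akr1d1, Cyp39a1 and the called markers and interactions were named after their values were seen. Alternatives were DESeq2 1.42.0, limma-voom (limma 3.58.1), other scalings and filters, library series, a replicate block, limits of the study (1 of the 2 it states for the standard diet) and each library left out; leaving out 2 HFD libraries together was added after seeing the data. Sequences are from RefSeq (GRCm38.p6). One hepatocyte marker was not analysed here, and 1 listed regulator is not reported here.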

Additional observations from a re-analysis of the deposited data

Results flagged for a closer look

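Fgfr4 was 34.8 CPM in Fc mouse 6 of the standard diet, while the other 8 Fc mice of that diet lay close together, up to 48.2 CPM. Its gap to the nearest mouse exceeded Dixon's 95% limit. Of 40 sets of values, 10 genes in 4 groups, it was the one to do so, and chance alone gives about 1 in 20.

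By the interaction term of edgeR, 3 of the 10 genes responded to Fc(mML1)B3 unequally under the 2 diets, where 9.06% of all 14105 genes passed. The effect under the standard diet minus that under the HFD was 2.03 for Cyp7a1, 0.54 for Nr1h4 and -0.37 for Fgfr4 on the log2 scale. For Cyp7a1 all 7 Fc(mML1)B3 mice of the standard diet were above the Fc median, against 5 of 10 under the HFD.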

How the results depend on the processing

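Of 1850 recomputed values of single genes, 1741 kept their direction and side of the threshold. With limits stated by the study 0 of the 10 genes and 178 genes in all were called under the HFD, and 1 and 320 under the standard diet. The limma-voom fit called 3039 genes under the HFD and 2026 in the interaction. The replicate block called 1294 and 1302 genes under the HFD and the standard diet and changed no call of the 10 genes, though it gave 0.76 with p = 0.0605 (permutation) for the ratio of Cyp8b1 to Cyp7a1 under the HFD. Replicate numbers did not pair the mice, with correlations of deviations of -0.681 to 0.372 under the HFD (2 of 10 above 0.1) and -0.201 to -0.00742 under the standard diet.

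With the Fc(mML1)B3 libraries of the series of 4, 2 of the 10 and 705 genes in all were called under the HFD. With the series of 6 the ratio of Cyp8b1 to Cyp7a1 was 0.69 (exact permutation p = 0.0989) and 1 of the 10 and 1703 genes in all were called. With libraries of 1 series under the standard diet, 3 of the 10 and 942 genes in all were called, and fewer samples entered each of these fits. For the remaining changes the cause was not tested. Abcb11 under the HFD was -0.029 with upper-quartile scaling, -0.084 with library totals, -0.018 with limma-voom, -0.028 with the block, -0.39 with the series of 4 and -0.019 without the 2 libraries. Nr1h4 under the HFD was -0.056 with library totals, Nr0b2 0.031 with the series of 4, Cyp8b1 under the standard diet 0.12 within 1 series, the interaction of Cyp27a1 8.54e-04 with library totals and 0.015 without the 2 libraries, and the diet difference of Fgfr4 in Fc(mML1)B3 mice -0.024 with upper-quartile scaling. None of these was called.

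With each library left out in turn, 2 to 3 of the 10 genes (1555 to 2848 of all genes) were called under the HFD, 5 to 6 (1730 to 2230) under the standard diet, 6 to 8 (6233 to 6972) between diets in Fc mice, 3 to 6 (4818 to 5578) between diets in Fc(mML1)B3 mice and 2 to 4 (1059 to 1540) in the interaction. The count of 3 between diets in Fc(mML1)B3 mice came without Fc(mML1)B3 mouse 10 of the HFD or mouse 1, 2 or 5 of the standard diet. The ratio of Cyp8b1 to Cyp7a1 under the HFD ranged from 0.64 to 0.92. Values near 0 changed sign, Abcb11 (-0.071 to 0.067) and Nr1h4 (-0.011 to 0.10) under the HFD, Fgfr4 between diets in Fc(mML1)B3 mice (-2.64e-04 to 0.088), and the interactions of Cyp27a1 (-0.12 to 0.048), Klb (-0.014 to 0.11) and Slc10a1 (-0.14 to 0.013).

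The depth limits little here, since the lowest count of any of the 10 genes was 186.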
